A study of Bos taurus with 4 samples.

Results

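Choline transport and phosphatidylcholine synthesis was followed in bovine expanded blastocysts through 10 genes: the choline transporter-like genes SLC44A1, SLC44A2 and SLC44A4, the choline kinases CHKA and CHKB, the cytidylyl transferases PCYT1A and PCYT2, the phosphotransferases CHPT1 and CEPT1, and the methyltransferase PEMT. All probes whose symbol in the platform annotation is one of these names were taken, which gave 20 of the 43794 probes of the array that are not control spots. Of these, 19 were above background often enough to be tested, of 28944 on the whole array, and 14 were above background in all 8 readings. All 10 genes had a tested probe, of 11417 genes in all. The set was put together with CHPT1 and SLC44A4 already known to have lower signals in vitrified blastocysts, so the values of its members in this comparison are a description and carry no test.

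Two-colour EmbryoGENE EMBV3 arrays compared 4 pools of blastocysts from vitrified morulae with 4 pools of blastocysts from control morulae. Morulae of the vitrified group were produced in vitro, equilibrated in ethylene glycol and dimethyl sulfoxide, vitrified on a cryotop in liquid nitrogen, warmed and cultured to expanded blastocysts, whereas control morulae came from the same in vitro production and reached that stage unfrozen. Each of the 4 arrays of 1 slide held 1 vitrified and 1 control pool, with vitrified RNA in Cy5 on arrays 1 and 2 and in Cy3 on arrays 3 and 4. Precision is limited by having only 4 arrays. Pools held 7 embryos per the labels and 5 to 7 per the Methods, and the morulae were of day 6 per the labels and of day 7 per the Methods. As day of collection the labels give day 7 after fertilization. The Methods take morulae on that day and culture them further to expanded blastocysts. The labels also mark cryopreservation for the control channels, which the treatment field and the Methods call control and unfrozen. The Methods call the replicates separate fertilization and freezing cycles, but which array holds which cycle is not given. The RNA of all pools was amplified with T7 polymerase before labeling, so that each value stands for amplified RNA of whole embryos, and fewer cells of a type and less RNA per cell cannot be told apart.

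Cells make most of their phosphatidylcholine, the main phospholipid of their membranes, by the CDP-choline or Kennedy pathway. Choline enters through transporters, is phosphorylated by choline kinases, is activated to CDP-choline by a cytidylyl transferase and is joined to diacylglycerol by a phosphotransferase. A parallel branch makes phosphatidylethanolamine, which PEMT can methylate to phosphatidylcholine. A blastocyst enlarges the membrane of its trophectoderm, the outer epithelium, while the blastocoel cavity expands.

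CHPT1, the choline phosphotransferase that joins CDP-choline to diacylglycerol, and SLC44A4, a choline transporter-like protein that in human colon cells is known to carry thiamine pyrophosphate, had lower signals in the vitrified pool than in the control pool on all 4 arrays. The mean log2 ratio of vitrified over control was -1.41 (SE 0.24) for CHPT1, a 2.66-fold lower signal, and -1.09 (SE 0.18) for SLC44A4, a 2.12-fold lower signal. The other 8 genes lay between -0.47 and 0.18 by their brightest probe, with a median of -0.14, or of -0.025 without array 2. One enzyme of the last step and 1 of 3 transporter genes thus had the lowest ratios, and the kinases, the cytidylyl transferases, CEPT1 and PEMT lay closer to 0. Over all 10 genes the median was -0.23 and 7 genes were under 0, against a median of 0.0049 and 49% of genes under 0 among the 11417 genes tested. Of the 19 tested probes only those of CHPT1 and SLC44A4 passed the threshold that the study set, an at least 2-fold difference at an unadjusted p under 0.05, which 0.218% of all tested probes passed, 0.145% as lower and 0.0726% as higher. The set was chosen on this same contrast, so nothing is read from these shares.

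**Figure D1:**
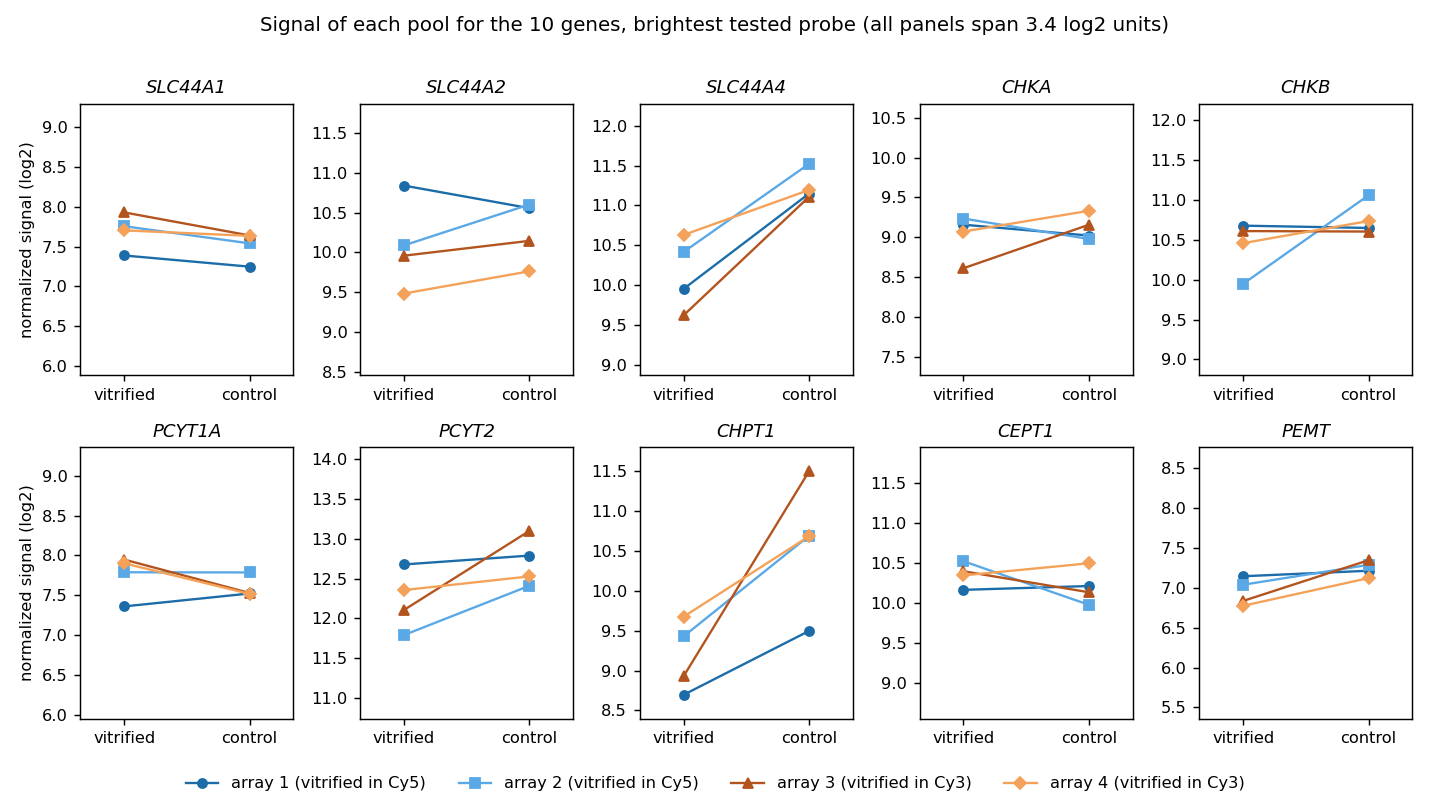
Normalized signal (log2) of each vitrified and each control pool for the brightest tested probe of the 10 genes, with a line joining the pools of 1 array. All lines slope up towards control for CHPT1, SLC44A4, PCYT2 and PEMT, and the 4 SLC44A4 vitrified pools, between 9.62 and 10.63, lie below its 4 control pools, between 11.11 and 11.52.

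Among the transporters, SLC44A4 had background-subtracted signals of 815, 1245, 937 and 1958 in the vitrified pools of arrays 1 to 4, against 2585, 3445, 1760 and 2059 in the control pools. After normalization, which also removes the difference in brightness between the dyes, its log2 signals were 9.96, 10.42, 9.62 and 10.63 in the vitrified pools and 11.15, 11.52, 11.11 and 11.19 in the control pools. Every vitrified pool was below every control pool, which held for this 1 of the 19 tested probes and for 1.65% of all tested probes, while 0 of the 19 and 1.41% of all had every vitrified pool above every control pool. Nothing is read from these shares, since this contrast chose the gene. The control pools were close to each other (mean 11.24, SD 0.19, n = 4), and the vitrified pools were more spread (mean 10.16, SD 0.45, n = 4), with the vitrified pool of array 4 nearest to the controls. The log2 ratios were -1.19, -1.10, -1.49 and -0.56 on arrays 1 to 4, a signal lower by 2.29-fold, 2.15-fold, 2.80-fold and 1.48-fold. SLC44A4 had a single probe, EMBV3_25702, above background in all 8 readings, and it ranked 23 from the lowest among 11417 genes.

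SLC44A1, the most widely expressed choline transporter of the family, was the only gene of the 10 with a higher signal in the vitrified pool on all 4 arrays, a trait of 7.27% of all tested probes. Its log2 ratios were 0.14, 0.21, 0.29 and 0.07, with a mean of 0.18 (SE 0.15). The SE was thus nearly as large as the mean, and the vitrified pools, from 7.39 to 7.93, overlapped the control pools, from 7.25 to 7.64. SLC44A2, a transporter of the plasma membrane and mitochondria, had 3 probes, which averaged -0.17 (SE 0.17), -0.34 (SE 0.17) and -0.06 (SE 0.21). Its brightest probe ran from 9.49 to 10.84 in vitrified pools and from 9.76 to 10.60 in control pools, so the groups overlapped over most of their range. On array 1 the first and the third of these probes were higher in the vitrified pool, with ratios of 0.28 and 0.83, against values from -0.51 to -0.19 on arrays 2 to 4.

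**Figure D2:**
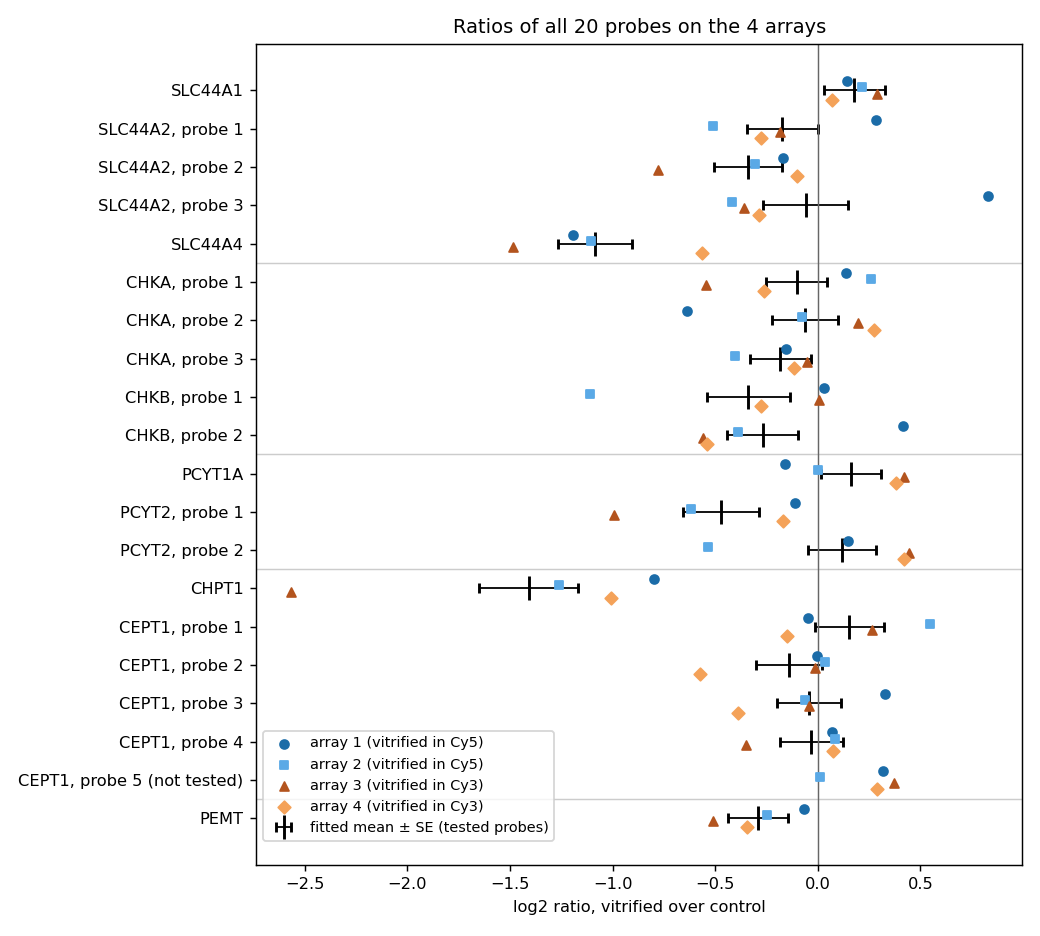
Log2 ratios of vitrified over control for all 20 probes on arrays 1 to 4, grouped by step from transport to PEMT, with the fitted mean and SE of the 19 tested probes. CHPT1 and SLC44A4 lie below -0.5 on every array, the means of the other 17 tested probes lie between -0.47 and 0.18, and the fifth CEPT1 probe was above background in none of its 8 readings, so its ratios compare background.

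The choline kinases, which trap choline in the cell as phosphocholine, had no probe with a mean beyond -0.34. CHKA had log2 ratios of 0.14, 0.26, -0.55 and -0.26 by its brightest probe, with a mean of -0.10 (SE 0.15). The positive ratios were those of the arrays with vitrified RNA in Cy5 and the negative ratios those with it in Cy3, and the dye coefficient of this probe was 0.30 (unadjusted p = 0.0756 from limma). Its other probes averaged -0.06 (SE 0.16) and -0.18 (SE 0.15), and the last was above background in 1 of 4 vitrified and 3 of 4 control readings. CHKB, the kinase that muscle needs in mice, had ratios of 0.03, -1.11, 0.01 and -0.28 by its brightest probe, with a mean of -0.34 (SE 0.20), so that its mean rested largely on array 2. On that array the vitrified pool had 9.95 and the control pool 11.06, whereas the other 3 vitrified pools, from 10.46 to 10.68, overlapped their control pools, from 10.60 to 10.73. Without array 2 the mean was -0.05. The second CHKB probe averaged -0.27 (SE 0.17), with 0.41 on array 1 and values from -0.56 to -0.39 on arrays 2 to 4.

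PCYT1A, the CTP:phosphocholine cytidylyl transferase that sets the rate of the choline branch, had vitrified pools from 7.36 to 7.95 and control pools from 7.52 to 7.79. The groups overlapped, and the log2 ratios of -0.16, 0.00, 0.42 and 0.38 averaged 0.16 (SE 0.15). Vitrified RNA in Cy5 gave a mean ratio of -0.08 and vitrified RNA in Cy3 a mean of 0.40. PCYT2, its counterpart for phosphoethanolamine, came next after CHPT1 and SLC44A4 with all 4 arrays, but CHKB lay lower without array 1 or array 3. Its brightest probe had log2 signals of 12.68, 11.79, 12.11 and 12.36 in vitrified pools and 12.79, 12.41, 13.10 and 12.53 in control pools. Every vitrified pool was below the control pool of its own array, by log2 ratios of -0.11, -0.62, -0.99 and -0.17, but the groups overlapped. The mean was -0.47 (SE 0.18), a 1.39-fold lower signal, and was -0.27 without array 3 and -0.68 without array 4. The second PCYT2 probe, above background in 3 of 4 readings of either group, averaged 0.12 (SE 0.17) and had the opposite sign on arrays 1, 3 and 4, so the probes of this gene disagreed.

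CHPT1, which acts in the Golgi and uses CDP-choline, had background-subtracted signals of 310, 614, 611 and 1021 in the vitrified pools of arrays 1 to 4, against 791, 1961, 2280 and 1419 in the control pools. Its normalized log2 signals were 8.70, 9.43, 8.93 and 9.68 in vitrified pools and 9.50, 10.69, 11.50 and 10.68 in control pools. The groups overlapped by a single pair, since the control pool of array 1 was below the vitrified pool of array 4. The log2 ratios were -0.80, -1.26, -2.57 and -1.01 on arrays 1 to 4, a signal lower by 1.74-fold, 2.40-fold, 5.93-fold and 2.01-fold. Array 3 was the most extreme through its control pool, which was the highest of the 4 controls, whereas its vitrified pool lay within the range of the other vitrified pools. Unlike for SLC44A4, the control pools were more spread (mean 10.59, SD 0.82, n = 4) than the vitrified pools (mean 9.18, SD 0.45, n = 4). CHPT1 was also measured by a single probe, EMBV3_22731, above background in all 8 readings, which ranked 7 from the lowest among 11417 genes. Without array 3 its mean log2 ratio was -1.02 and without array 4 it was -1.80.

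The spread of all ratios differed between arrays, with an SD over the tested probes of 0.36, 0.44, 0.54 and 0.32 on arrays 1 to 4, so each ratio was also placed among those of its own array. CHPT1 lay at the percentiles 1.25, 0.753, 0.0518 and 0.18 from the lowest on arrays 1 to 4, and SLC44A4 at 0.211, 1.3, 0.881 and 3.5. On that scale CHPT1 was more extreme than SLC44A4 on arrays 2 to 4, and SLC44A4 was more extreme on array 1. The order of the genes by ratio thus depended on the array, and array 4, with the smallest spread of all ratios, had the SLC44A4 ratio nearest to those of other probes.

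CEPT1, which can use both CDP-choline and CDP-ethanolamine in the endoplasmic reticulum, shares the last step with CHPT1 and did not share its ratios. Its brightest probe had log2 signals of 10.16, 10.52, 10.39 and 10.34 in vitrified pools and 10.21, 9.97, 10.13 and 10.49 in control pools, and the groups overlapped. The ratios of -0.05, 0.55, 0.26 and -0.15 averaged 0.15 (SE 0.17). The 3 other tested CEPT1 probes averaged between -0.14 and -0.03, and the fifth was never above background. PEMT, best known from liver, had ratios of -0.07, -0.25, -0.51 and -0.35, with a mean of -0.29 (SE 0.15). Its probe was dim, above background in 2 of 4 vitrified and 4 of 4 control readings, and its vitrified pools, from 6.78 to 7.14, overlapped its control pools, from 7.12 to 7.35, narrowly. Over all steps, 6 of the 19 tested probes were lower in the vitrified pool on all 4 arrays, where 7.13% of all tested probes were. They were those of SLC44A4, CHPT1 and PEMT and 1 each of SLC44A2, CHKA and PCYT2. Nothing is read from this share either, since the set was chosen on this contrast.

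The dye effect had not been used to choose the genes and was tested in the same limma fit. Of the 19 tested probes, 0 had a dye effect at an unadjusted p under 0.05 and 0 at an adjusted one by limma, beside 8.3% and 0% of all tested probes. An at least 2-fold dye effect at an unadjusted p under 0.05 was found for 0.121% of all. For CHPT1, the mean ratio was -1.03 with vitrified RNA in Cy5 and -1.79 with vitrified RNA in Cy3, a dye coefficient of 0.38 (SE 0.24, unadjusted p = 0.152 from limma). SLC44A4 had -1.15 with vitrified RNA in Cy5 and -1.02 with it in Cy3, a dye coefficient of -0.06 (unadjusted p = 0.739 from limma). With 2 arrays in either orientation, a dye effect of the size seen for CHPT1 was not distinguishable from the spread between arrays, and both genes had negative ratios in both orientations.

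Other genes of choline and phospholipid metabolism came from lists that do not hold the 10 genes, and 79 of 92 on the array were tested. By limma and an unadjusted p under 0.05, 6 were lower (7.59%) and 7 were higher (8.86%) in vitrified blastocysts, beside 5.08% lower and 3.61% higher of all 11417 genes. One of the 6, SLC44A3, passed the filter on dim probes through its control readings alone, and without it 5 of 78 were lower. With median centring, without quantile normalization, with the robust fit or with the authors' ratios, 7 were lower and 5 higher. Adjusted over all probes, none had a limma p under 0.05 (0.409 to 0.654 for these 13 genes), and 0 passed the 2-fold threshold of the study. Both the count and its balance depended on the arrays, with 9 lower and 3 higher without array 1, 2 lower and 1 higher without array 2, 0 lower and 2 higher without array 3, and 16 lower and 10 higher without array 4. Over the 79 genes the median log2 ratio was -0.09, with 48 under 0. None of the 79 lay as low as CHPT1 or SLC44A4, as they ranged from -0.70 to 0.76. Nothing is read from this either, since those 2 genes were chosen with their low ratios known.

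**Figure D3:**
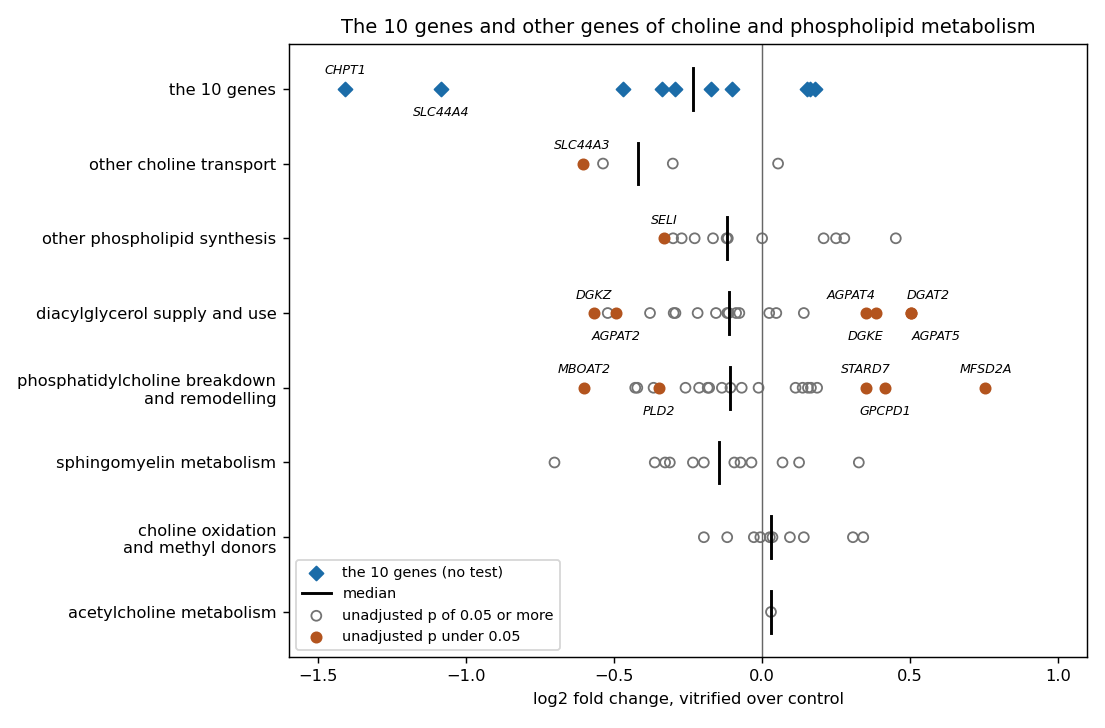
Log2 fold change of vitrified over control for the 10 genes and for 79 other tested genes of choline and phospholipid metabolism, 1 point a gene by its brightest probe, with the median of each list as a vertical bar. CHPT1 at -1.41 and SLC44A4 at -1.09 lie left of all other points, filled circles mark the 6 genes on the left and 7 on the right with an unadjusted p under 0.05 (SLC44A3 passed the filter through its control readings alone), and AGPAT5 and DGAT2 coincide at 0.50.

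Of the other choline transport genes, 4 of 8 were tested, with a median of -0.42. SLC44A3, a further member of the choline transporter-like family, had log2 ratios of -0.29, -0.40, -1.45 and -0.29 and a mean of -0.61 (SE 0.20, adjusted p = 0.597 from limma). Its probe was not well above background in any vitrified pool and was above it in all 4 control pools. The mean log2 signals were 6.78 in vitrified and 7.39 in control pools, a 1.52-fold lower mean signal. A probe that is tested because of its control readings alone is likely to be lower in vitrified pools. Its ratio and its place among the lower genes are therefore a description. Taking on each array the higher of its own vitrified signal and the lowest signal above background gave the same 1.52-fold. That value is thus the estimate itself and not a minimum. Without array 3 its mean ratio was -0.32. None of the other 3 genes had an unadjusted p under 0.05 by limma. The other genes of phospholipid synthesis numbered 12 tested of 13, with 7 under 0 and a median of -0.12. SELI, the ethanolamine phosphotransferase that ends the branch parallel to CHPT1, was the only one lower at an unadjusted p under 0.05, with a mean of -0.33 (SE 0.14, unadjusted p = 0.0476 from limma) and with a range of -0.46 to -0.20 over the arrays. It lost that p in 7 of 15 alternative settings.

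Diacylglycerol is the partner that CHPT1 joins to choline, and the unadjusted p was under 0.05 for 6 of 19 tested genes that supply or use it, 2 of them lower and 4 higher. DGKZ, a kinase that turns diacylglycerol into phosphatidic acid, was lower at -0.57 (SE 0.19, unadjusted p = 0.0151 from limma), with -0.43, -1.39, -0.40 and -0.05 on arrays 1 to 4. DGKE, a kinase of the same reaction, was higher at 0.39 (SE 0.15, unadjusted p = 0.0315 from limma), with ratios from 0.15 to 0.64. Genes of 1 enzymatic step thus lay on both sides. The DGKE probe was above background in 4 of 4 vitrified and 3 of 4 control readings. AGPAT5, which acylates lysophosphatidic acid on the way to diacylglycerol, was higher at 0.50 (SE 0.18, unadjusted p = 0.0231 from limma), and its 3 other probes averaged 0.20, 0.60 and 0.21. DGAT2, which makes triacylglycerol from diacylglycerol, was higher at 0.50 (SE 0.21, unadjusted p = 0.0380 from limma), with ratios of 0.08, 1.16, 0.67 and 0.09, and its other probe averaged 0.03. Without array 2, DGKZ averaged -0.33 and DGAT2 0.23, without array 3 AGPAT5 averaged 0.27 and DGKE 0.31, and each then lost its p. The remaining genes past this p, AGPAT2 at -0.49 and AGPAT4 at 0.35, are named after their values were seen. AGPAT2 averaged -0.22 without array 3 and lost its p in 6 of 14 alternatives, and AGPAT4 lost its p in 8 of 15. The AGPAT2 probe was above background in 3 of 4 vitrified and 4 of 4 control readings.

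Genes that remodel, move or break down phosphatidylcholine were tested for 21 of 22, with a median of -0.11, and 2 were lower and 3 higher by the same p. MFSD2A, a transporter that brings lysophosphatidylcholine into cells, was higher at 0.76 (SE 0.16, unadjusted p = 0.00139 and adjusted p = 0.409 from limma), with 0.26, 0.87, 1.06 and 0.82 on arrays 1 to 4. It kept its unadjusted p under 0.05 in all 14 alternative settings that gave it a value. The filter on all 8 readings gave it none, as its probe was above background in 4 of 4 vitrified and 3 of 4 control readings. MBOAT2, an acyltransferase that reattaches fatty acids to lysophospholipids, was lower at -0.60 (SE 0.17, unadjusted p = 0.00712 from limma), but its ratios of -0.03, -0.08, -1.55 and -0.75 came close to 0 on the arrays with vitrified RNA in Cy5, and without array 3 it averaged -0.40 and lost its p. The MBOAT2 probe was above background in 3 of 4 vitrified and 4 of 4 control readings. GPCPD1, which cleaves glycerophosphocholine, a breakdown product of phosphatidylcholine, was higher at 0.42 (SE 0.18, unadjusted p = 0.0426 from limma). It had an opposite ratio of -0.22 on array 4, another probe at -0.16 and a mean of 0.21 without array 3. GPCPD1 lost its p in 5 of 15 alternatives, among them the one without array 3. PLD2, which cleaves choline from phosphatidylcholine, was lower at -0.35 (SE 0.15, unadjusted p = 0.0448 from limma), with ratios from -0.59 to -0.08. It lost that p in 8 of 14 alternatives. Its probe was above background in 3 of 4 vitrified and 4 of 4 control readings. STARD7, which carries phosphatidylcholine to mitochondria, was the remaining gene at 0.35, named after its value was seen, with other probes at 0.01 and 0.06, and lost its p in 9 of 15 alternatives. Of sphingomyelin metabolism, which draws on phosphatidylcholine as a donor, 12 of 13 genes were tested and 9 were under 0, with a median of -0.15. Of choline oxidation and methyl donors 10 of 12 genes were tested, with a median of 0.03, and of acetylcholine metabolism 1 of 4, and no gene of these 3 lists had an unadjusted p under 0.05 by limma.

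Probes of other genes were ranked by the root mean square difference of their 4 ratios from those of CHPT1 and SLC44A4, over 15747 probes with a symbol. Nearest to CHPT1 were IFI30, a lysosomal thiol reductase (0.24), HEBP2, a heme-binding protein (0.26), PTGS2, the inducible prostaglandin synthase (0.33), AKR1B1, an aldo-keto reductase (0.35), and the predicted gene LOC616199 (0.35). All 5 had their lowest ratio on array 3, between -2.50 and -2.21, as CHPT1 had. Nearest to SLC44A4 were FHL2, a LIM domain protein (0.11), CLDN23, a claudin (0.16), PAG12, a pregnancy-associated glycoprotein (0.18), PLAU, the urokinase plasminogen activator (0.18), and ELOVL1, a fatty acid elongase (0.26). Their ratios on array 4 lay between -0.62 and -0.37, the ones nearest to 0 for each of them, as for SLC44A4. CHPT1 and SLC44A4 differed from each other by 0.62. Of the 15747 probes, this put SLC44A4 at rank 27 from CHPT1 and CHPT1 at rank 213 from SLC44A4. Each was thus near the other in rank, but not among its 5 nearest. This likeness is over 4 arrays and follows from how the probes were ranked.

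**Figure D4:**
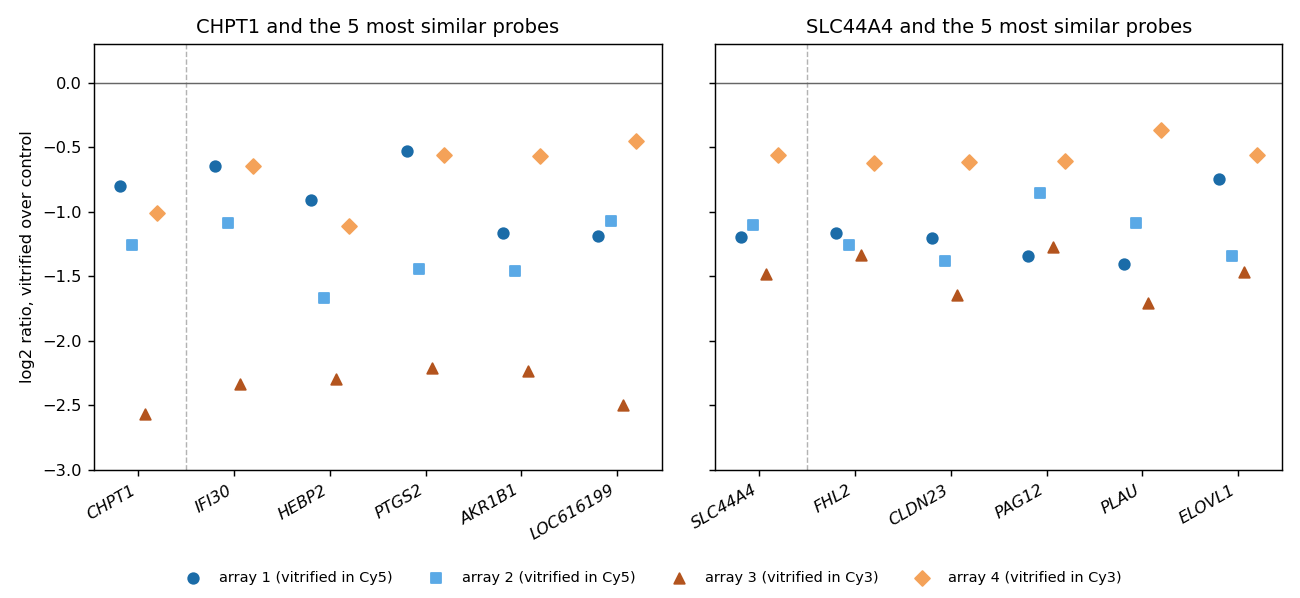
Log2 ratios of vitrified over control on arrays 1 to 4 for CHPT1 and SLC44A4, left of the dashed lines, and for the 5 probes with the smallest root mean square difference from either. Array 3 holds the lowest ratio of CHPT1 and its 5 nearest probes, and array 4 the ratio nearest to 0 of SLC44A4 and its 5 nearest probes.

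The nearest protein-coding genes on the chromosome, 3 on either side in the order of the ARS-UCD2.0 annotation, were read for each of the 10 genes. Of the 6 neighbours of SLC44A4, 3 were measured and NEU1, a lysosomal sialidase next to it, was lower at -0.77 (unadjusted p = 0.00679 from limma), with ratios of -0.60, -1.07, -1.36 and -0.06 and a mean of -0.45 without array 3. Its ratio nearest to 0 was that on array 4, the array with the smallest spread of all ratios. The other neighbours EHMT2 and HSPA1A had -0.06 and -0.14 and did not pass that p. Of the 6 neighbours of CHPT1, 4 were measured and none was lower at an unadjusted p under 0.05. SPIC, an ETS-family transcription factor, was higher at 0.77 (unadjusted p = 0.00243 from limma), with 1.02, 1.01, 0.99 and 0.05 on arrays 1 to 4 and 0.24 for its other probe. No measured neighbour of the other 8 genes passed an unadjusted p under 0.05 by limma. These neighbours are named after their values were seen.

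Markers of the cell types a pool could hold were read beside these results. All 11 trophectoderm markers were above background in all 8 readings, so the outer epithelium was measured in every pool. Of them, 9 had a ratio under 0, with a median of -0.26. The limma test gave 3 of the 11 as lower by an unadjusted p under 0.05, beside 5.08% of all genes tested. These were PAG2 (-0.84), TFAP2A (-0.88, or -0.40 without array 2) and IFNT (-0.68, or -0.31 without array 3). PAG2 kept that p in all 15 alternatives, and TFAP2A and IFNT each lost it in 2 of 15. The summed normalized signal of all 11 ran from 117498 to 146846 in vitrified pools and from 129374 to 162722 in control pools. On array 1 the vitrified pool had the higher sum, 140968 against 129374. On arrays 2 to 4 it had the lower, with 146846, 117498 and 128817 against 162722, 162340 and 152827. The brightest markers weigh most in this sum. KRT8, KRT18 and TFAP2C had mean log2 signals of 15.6, 15.1 and 14.9 and ratios of -0.33, -0.26 and 0.32. What part the 11 markers have in the CHPT1 and SLC44A4 values was not tested. The summed signal of 6 inner cell mass markers ran from 17674 to 27498 in vitrified pools and from 15123 to 22820 in control pools. Within every array the vitrified pool had the higher sum. The sums on arrays 1 to 4 were 24137, 27498, 17674 and 23082, against 21300, 22820, 16948 and 15123 in the control pools. Of these 6, 2 had a ratio under 0, with a median of 0.31. NANOG was lower (-0.78, or -0.38 without array 3) and KLF4 higher (0.60, or 0.29 without array 2) by the same p, which both then lost. The summed signal of 5 hypoblast markers ran from 5448 to 8097 in vitrified pools and from 4341 to 8543 in control pools. Here the vitrified pool had the higher sum on arrays 1 and 2 and the lower on arrays 3 and 4. By the same p APOA1 was lower (-1.01, or -0.67 without array 3) and PDGFRA higher (0.47). The PDGFRA ratios had an SD of 0.93 over the arrays, whereas the fit, which holds a dye term, gave their mean an SE of 0.15. Its p was lost in 4 of 15 alternatives, among them without array 2, without array 4 and without the dye term (unadjusted p = 0.134 from limma). Of other cell types, the defining markers were partly at background. Among 9 oocyte markers GDF9 and ZAR1 were above it in no reading and OOEP was in all 8, with summed signals from 1228 to 1314 in vitrified pools and from 1248 to 1335 in control pools. Among 8 cumulus markers AMH, HAS2 and LHCGR were above it in no reading and CYP19A1 was in all 8, with sums from 1023 to 1132 in vitrified pools and from 1037 to 1244 in control pools. Among 6 sperm markers AKAP4 and PRM2 were above it in no reading and PRM1 and TNP1 were in all 8, with sums from 716 to 1020 in vitrified pools and from 695 to 826 in control pools. ZP3 of the oocyte list (-0.38) and FSHR of the cumulus list (-0.57, or -0.31 without array 3) were lower by the same p, which ZP3 lost whichever array was left out and FSHR without array 2 or array 3, and no sperm marker passed it. What these markers contribute to the values of the 10 genes was not tested. The share of probes above background was 60.3% to 67.3% in vitrified pools and 60.1% to 66.6% in control pools.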

How the data were processed

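RNA of 4 vitrified and 4 control pools was read on 4 two-colour arrays of 1 slide, and the labels gave each channel its group. The spot intensity values, the scanner's median signal and local background of either dye, were deposited by the authors without background subtraction. The log2 ratios deposited by the authors, whose methods give lowess and quantile normalization, correlate at r = 0.9989 or more with ratios taken here before the quantile step, keep the dye direction of each array and served as an alternative only. No column of values was left unused.

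Under R 4.3.3, the packages limma (3.58.1) and data.table (1.17.8) were used. Signals less local background were floored at 0.5. Ratios were normalized by loess within and quantiles between arrays and turned to vitrified over control. A spot was above background beyond the mean of 153 negative controls plus 2 SD, and probes above it in at least 4 of 8 readings were tested. The limma model held group and dye (2 residual and 6.76 prior degrees of freedom), with two-sided p values and Benjamini-Hochberg adjustment over all tested probes. A gene had its brightest tested probe, and 21790 probes had 1 symbol. The ARS-UCD2.0 annotation holds all 10 symbols.

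The members, the lists and the tests were chosen with earlier results of these data known. Named genes were the 10 members, up to 4 genes of each other list with the smallest unadjusted p under 0.05, and the 5 probes nearest to CHPT1 and to SLC44A4 in their ratios, and the text says where others are named. The steps were tested on simulated data. Alternatives left out each array, averaged a gene's probes, took the authors' ratios, fitted the channels separately, dropped the dye term, used a robust fit with an intensity trend, centred on the median in place of loess, skipped the quantile step, kept all probes or only those above background in all 8 readings, subtracted no background, or used normexp (offset 50). Arrays of slow-frozen embryos were not analysed here.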

Additional observations from a re-analysis of the deposited data

Results flagged for a closer look

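In 8 of 44 groups of 4 ratios, 1 array lay far from the other 3. The rule used flags about 1 group in 20 where the 4 values come from 1 normal distribution. Here the arrays differed in spread and some groups were chosen by their values, so the count cannot be set against that rate. Among the 10 genes, a probe of SLC44A2 (EMBV3_40671) had a log2 ratio of vitrified over control of 0.83 on array 1, with -0.42 to -0.29 on the others. A probe of CEPT1 (EMBV3_03799) had -0.57 on array 4, with -0.02 to 0.04 on the others, and another (EMBV3_33957) had -0.35 on array 3, with 0.07 to 0.08 on the others. Of the other genes of the pathway, SLC44A3 had -1.45 on array 3, with -0.40 to -0.29 on the others, so its mean rests largely on that array. GPCPD1 had -0.22 on array 4, with 0.58 to 0.69 on the others, and STARD7 had 0.66 on array 3, with 0.22 to 0.29 on the others. SPIC, near CHPT1 on the chromosome, had 0.055 on array 4, with 0.99 to 1.02 on the others, and the trophectoderm marker PAG2 had -1.40 on array 1, with -0.70 to -0.60 on the others. Neither CHPT1 nor SLC44A4 had such an array.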

How the results depend on the processing

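CHPT1 and SLC44A4 kept negative ratios in all 15 alternatives, from -1.80 to -1.02 for CHPT1 and from -1.32 to -0.86 for SLC44A4, all within the spread between arrays. The brightest probe of SLC44A2 turned positive (0.02) in 1 alternative and that of CEPT1 negative (-0.02) in 1, and PEMT had no value where all 8 readings had to be above background. The median of the other 8 genes ran from -0.21 without array 1 to -0.025 without array 2. The count of 63 probes at the study's threshold became 32 without array 3, 166 without array 1 and 277 without array 4. The count of 13 other genes of the pathway became 5 with the stricter filter and 24 with separate channels, 2 without array 3, 3 without array 2 and 26 without array 4. The alternatives of the dye effect were added after the data were seen: its 35 probes became 23 with normexp, 23 with no background subtraction, 56 with no filter, and 53 to 110 with 1 array left out. Leaving out 1 array makes the remaining array of that dye orientation count as much as the other two, and the cause of these changes was not tested. The limma fit on ratios within arrays is itself paired by array, and the separate-channel fit is its alternative. The oocyte marker ZP3 had 0.012 with the mean over its probes, against -0.38 by its brightest.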
